A study of Rattus norvegicus with 8 samples.

Results

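The genes described here are Cd9, whose protein was the antigen used to sort the cells, and 7 relatives in the tetraspanin family, Cd81, Cd63, Cd151, Cd82, Cd53, Cd37 and Tspan8. They were found on the arrays through the RefSeq accession of each probe. All 8 had a probe, among 15154 named genes, and 1 probe stood for each of them. The aged group was CD9-positive testis cells from Sprague-Dawley rats of 21 months (4 arrays), and the young group was the same kind of cells from rats of 4 months (4 arrays). All rats carried a transgene that puts green fluorescent protein in germ cells. The promoter of the transgene, the number of rats behind an array and the use of the fluorescence in the sort were not given in the sources used here. One-colour Agilent rat arrays measured the RNA, labelled from 18 ng per sample, and the comparison addressed how transcript levels differed between aged and young sorted cells. Nothing states that the arrays of a group came from separate animals, so the spread behind each p-value is that between these samples and can be technical.

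Tetraspanins are small proteins that cross the membrane several times and gather integrins, immunoglobulin-domain proteins and proteases into patches on the cell surface. CD9 sits on rodent spermatogonia, on the egg, where it is needed for fusion with sperm, and on many somatic cells. CD81 is its closest well-known relative, CD151 and CD82 act in integrin adhesion, CD63 marks late endosomes and extracellular vesicles, TSPAN8 is known from epithelia and tumours, and CD53 and CD37 are restricted to leukocytes.

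On a log2 scale relative to the 75th percentile of each array, 0 of the 6 members that could be tested changed between aged and young cells. The limma fit over all 10234 genes tested called 67 genes, 0.655%, at a Benjamini-Hochberg adjusted p under 0.05. Cd63 and Cd81 had slightly higher values in aged cells (0.18 and 0.083), and Cd9, Cd82, Cd151 and Cd53 had lower ones (−0.16, −0.26, −0.38 and −0.78). The median of the 6 was −0.21, against 0.11 for all genes tested, and 36.6% of all genes tested had a value below 0. The 2 members not tested, Cd37 and Tspan8, did not pass the filter, which asked for at least 0.5 of a probe's spots to be well above background on every array of 1 group. Cd53, with the lowest of the 6 values, passed it through the young arrays alone. The aged and young values overlapped in each of the 8 members, while they did not overlap in 14.3% of the genes tested. At an unadjusted p under 0.05 the fit held 0 of the 6 members, against 31.4% of all genes tested.

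**Figure D1:**
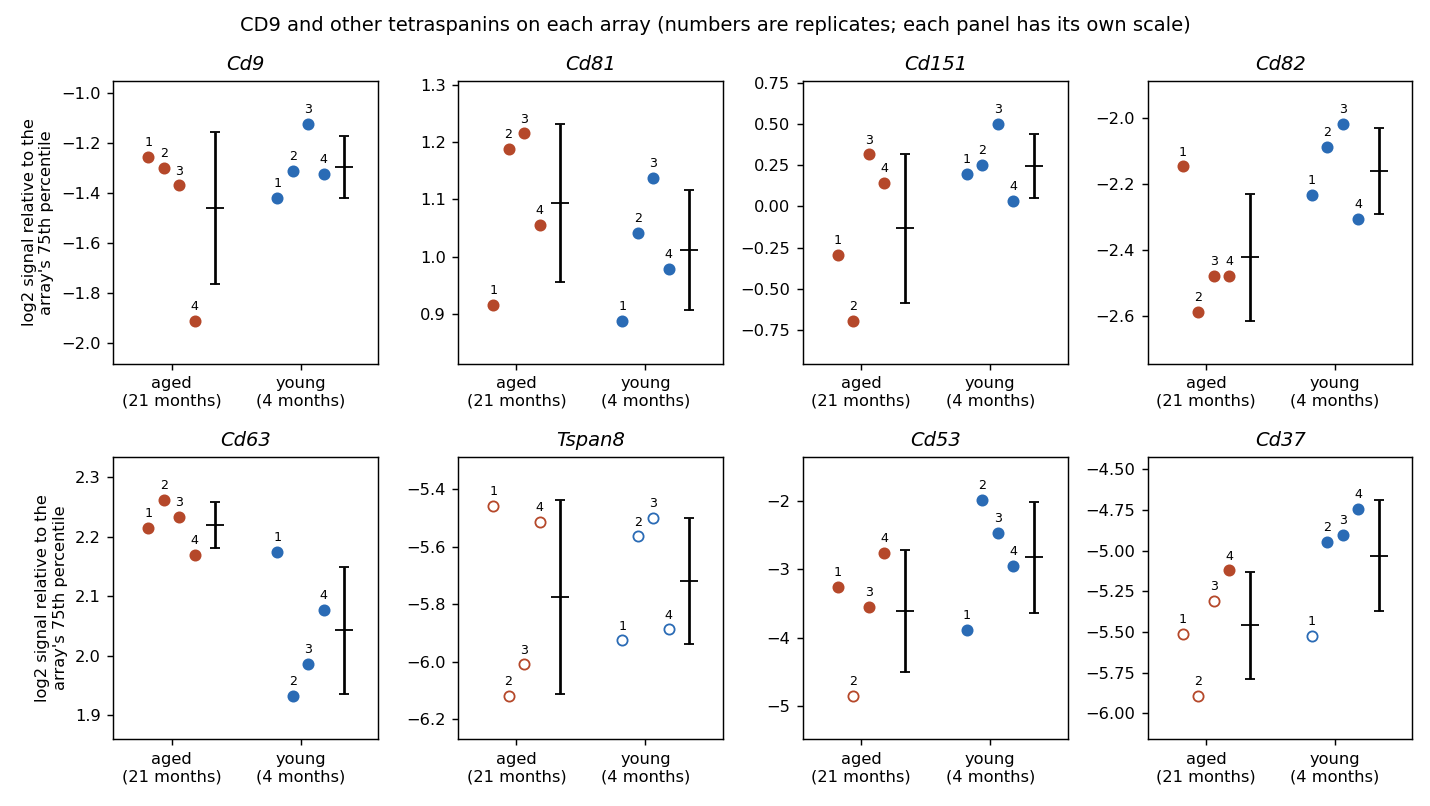
Log2 processed signal of each gene's probe relative to the 75th percentile of its array (vertical axis, own scale per panel), for 4 aged arrays (left) and 4 young arrays (right). Filled points were well above background in at least 0.5 of the spots, open points were not, and the bar gives mean and SD. The 4 aged values of Cd63 lie within 0.093, and aged replicate 4 lies below the other arrays for Cd9.

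Depth on these arrays is set by signal over background. The 75th percentile of the processed signal ran from 326 to 524 intensity units, 63.0% to 72.0% of probes were well above background, and no member's spot was saturated. The germ cell genes Dazl, Mael and Ddx4 were well above background on every array. Young replicate 1 stood apart from the other young arrays, with a mean of −0.47 over 12 spermatid markers and −0.65 over 10 markers of peritubular myoid and stromal cells. Over the aged arrays the 2 means ran from −1.15 to −0.11 and from −1.38 to −0.29, and over the remaining young arrays from 0.52 to 1.05 and from 1.07 to 1.22 (log2, relative to the mean of each gene). Of 10 spermatocyte markers tested, 7 were called higher in aged cells and 0 lower, against 0.498% and 0.156% of all genes tested. Each of the 7 had a limma adjusted p of 0.0465, just under the cut, and 0 genes were called without scaling or with the replicate block. The part of such shifts in the members' values was not tested. All arrays shared 1 slide and 1 scan. In such bulk samples fewer cells of a type and less RNA per cell cannot be told apart.

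The promoters of Cd9, Cd53 and Cd37 are shown because the sort antigen and the leukocyte members behaved differently over the arrays, as described below. Each run gives the 250 bases before the RefSeq gene start on build GRCr8, 5′ to 3′ on the gene's strand. All 3 genes lie on the minus strand, with Cd9 at chr4:159975359-159975608, Cd53 at chr2:197087897-197088146 and Cd37 at chr1:104860785-104861034. Capitals mark GGGCGG and GAGGAA on either strand (GAGGAA on the other strand reads TTCCTC).
Cd9: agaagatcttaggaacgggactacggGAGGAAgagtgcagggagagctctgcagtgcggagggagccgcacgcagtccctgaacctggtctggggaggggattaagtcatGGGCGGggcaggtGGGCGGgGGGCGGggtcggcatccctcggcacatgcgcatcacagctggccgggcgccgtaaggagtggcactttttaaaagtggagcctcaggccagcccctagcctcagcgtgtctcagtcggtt
Cd53: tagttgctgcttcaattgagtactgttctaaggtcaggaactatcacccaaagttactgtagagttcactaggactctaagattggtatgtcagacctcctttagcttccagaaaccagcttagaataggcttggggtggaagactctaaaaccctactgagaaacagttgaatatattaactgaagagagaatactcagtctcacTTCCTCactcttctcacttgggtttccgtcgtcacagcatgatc
Cd37: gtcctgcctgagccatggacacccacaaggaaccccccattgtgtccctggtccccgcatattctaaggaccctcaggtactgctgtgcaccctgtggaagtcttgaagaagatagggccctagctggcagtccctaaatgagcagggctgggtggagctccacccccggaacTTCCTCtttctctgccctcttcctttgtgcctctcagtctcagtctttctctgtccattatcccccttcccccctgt
The window of Cd9 holds GGGCGG 3 times and GAGGAA 1 time, with 16 CG pairs and 64.0% G or C. Windows of Cd53 and Cd37 hold GGGCGG 0 times and GAGGAA 1 time each, with 2 CG pairs each. GGGCGG is found in 30.5% and GAGGAA in 23.3% of 33469 rat windows of this length. Of the 7 members with a window, Cd81, Cd63 and Cd151 hold GGGCGG 2 times each, and Tspan8 holds neither motif. Of 3 other motifs searched on both strands, TATAAA (in 12.9% of all windows) was in none of the 7, CCAAT (11385 of the windows) was in that of Cd53, and CACGTG (5.59%) was in that of Cd63. These matches describe the letters and do not show that a factor binds there.

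Cd9 itself was well above background in 40 of 40 spots on the aged and 40 of 40 on the young arrays, 10 on each. Its log2 level was −1.26, −1.30, −1.37 and −1.91 on aged arrays 1 to 4, against −1.42, −1.31, −1.13 and −1.33 on young arrays 1 to 4. Aged replicate 4 was the lowest of all arrays, and the other 3 aged values lay inside the young range. The change was −0.16 ± 0.16 (SE, n = 4 per group, limma adjusted p = 0.492), with a 95% interval of −0.52 to 0.19, that is 0.697 to 1.14 times the young level. Without aged replicate 4 it was −0.013, and leaving out this lowest array narrows the difference by construction. With median scaling the change was −0.0085. With scaling to spike-in RNA, a setting chosen after the data were seen, it was −0.62 (95% interval −1.18 to −0.062, limma adjusted p = 0.109). That scaling moved the median of all genes from 0.11 to −0.35. The alternatives for Cd9 ran from −0.62 to −0.0085.

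The Cd9 signal before scaling differed little between the aged arrays. The mean unscaled Cd9 signal was 138, 146, 154 and 140 intensity units on aged arrays 1 to 4, and 122, 162, 231 and 164 on young arrays 1 to 4. The 75th percentile of these arrays went from 331 in aged replicate 1 to 524 in aged replicate 4. On young arrays the Cd9 signal and the percentile moved together, from 122 and 326 in replicate 1 to 231 and 503 in replicate 3. The log2 SD between the spots of an array was 0.11 on average on aged and 0.062 on young arrays, below the SD between arrays of 0.30 and 0.12. In aged replicate 4 the lowest spot was at 102, and the other spots ran from 125 to 160. With the median over spots in place of the mean the change of Cd9 was −0.17.

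**Figure D2:**
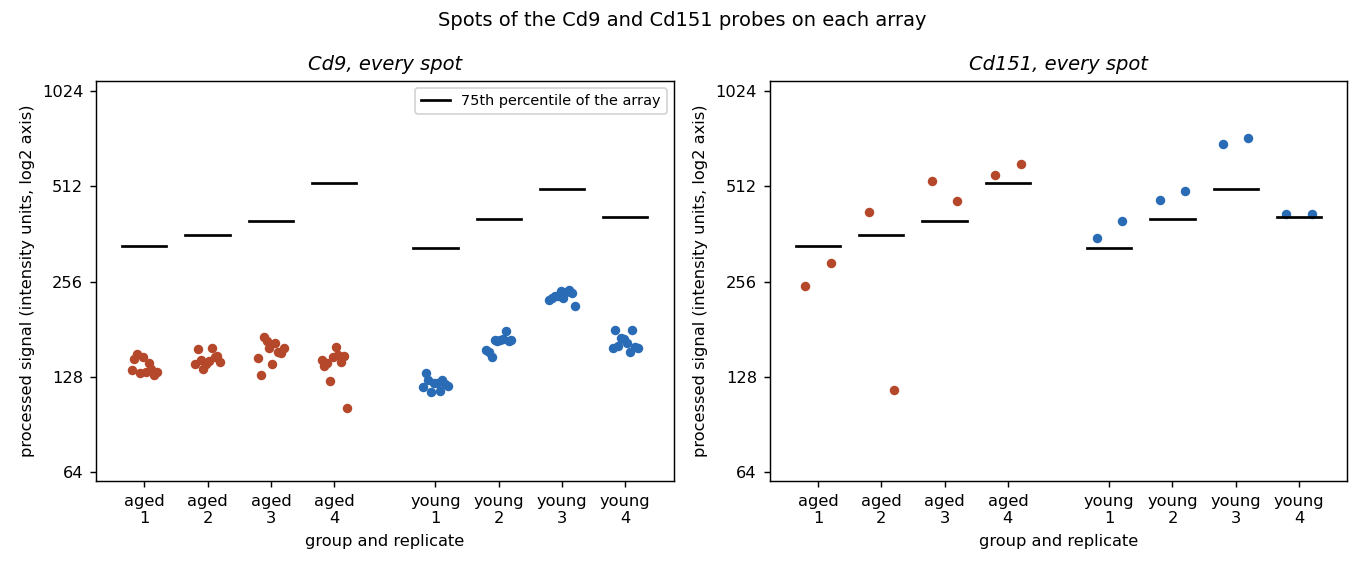
Processed signal (log2 axis, intensity units) of every spot of the Cd9 probe (10 per array) and the Cd151 probe (2 per array), for 4 aged arrays (left of each panel) and 4 young arrays, with a black line at the 75th percentile of the array. Cd9 spots of aged replicate 4 lie at the level of the other aged arrays while the line reaches 524, and the 2 Cd151 spots of aged replicate 2 stand at 426 and 117.

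Cd81, which shares with CD9 the partner proteins PTGFRN and IGSF8, was among the steadier genes. Its level on the log2 scale was 0.92, 1.19, 1.22 and 1.06 on aged arrays 1 to 4, against 0.89, 1.04, 1.14 and 0.98 on young arrays 1 to 4. Replicate 1 was the lowest in both groups and replicate 3 the highest, and the ranges overlapped, with aged replicates 2 and 3 above every young array. The change was 0.083 ± 0.11 (SE, n = 4 per group, limma adjusted p = 0.628, 95% interval −0.17 to 0.33). Its SD within groups, 0.12, was at percentile 10.2 of all genes tested. The value turned to −0.37 with scaling to spike-in RNA, a setting chosen after the data were seen that moved the median of all genes from 0.11 to −0.35, and Cd63 turned to −0.28.

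The difference between Cd9 and Cd81 within an array is untouched by a scaling that shifts a whole array by 1 constant, though not by quantile scaling (Cd9 −0.080, Cd81 0.015). It was −2.97 to −2.17 on the aged arrays and −2.35 to −2.26 on the young arrays (log2 values of 2 probes, so only its shift can be read). The mean shift was −0.25, and the aged range enclosed the young one. Among the 15 pairs of tested members the aged and young ranges overlapped in all pairs. The largest mean shift was that of Cd63 against Cd53, 0.96, with aged values from 4.92 to 7.12 and young values from 3.91 to 6.07.

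Cd151, a partner of laminin-binding integrins, had a log2 level of −0.29, −0.69, 0.32 and 0.14 on aged arrays 1 to 4, against 0.20, 0.25, 0.50 and 0.033 on young arrays 1 to 4. Aged replicates 1 and 2 lay below every young array, and aged replicates 3 and 4 lay within the young range. The change was −0.38 ± 0.22 (SE, n = 4 per group, limma adjusted p = 0.256, 95% interval −0.87 to 0.11). Its lowest value rests on 2 spots of aged replicate 2 that disagree, at 426 and 117 intensity units, or 0.24 and −1.63 on the scaled log2 axis. On the other 7 arrays the 2 spots of this probe differed by at most 0.25 on the log2 scale. On aged replicate 2, 0.737% of the probes with 2 bright spots had a gap of over 1, against 0.164% to 0.808% over the 8 arrays. Without that value the change of Cd151 was −0.19 (adjusted p = 0.488), a setting added once the spots had been seen.

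Cd82, a tetraspanin that restrains cell migration, had the smallest p of the 6. Cd82 had log2 levels of −2.15, −2.59, −2.48 and −2.48 on aged arrays 1 to 4, against −2.23, −2.09, −2.02 and −2.31 on young arrays 1 to 4. Aged replicates 2, 3 and 4 lay below all young arrays, while aged replicate 1 lay among them. The change was −0.26 ± 0.13 (SE, n = 4 per group, limma adjusted p = 0.191, 95% interval −0.55 to 0.026). Under the alternatives it ran from −0.72 to −0.098.

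Cd63, the tetraspanin of late endosomes, had log2 levels of 2.22, 2.26, 2.23 and 2.17 on aged arrays 1 to 4, against 2.18, 1.93, 1.99 and 2.08 on young arrays 1 to 4. The 4 aged values lay within 0.093 of each other, and only young replicate 1 reached into their range. The change was 0.18 ± 0.10 (SE, n = 4 per group, limma adjusted p = 0.240, 95% interval −0.044 to 0.40). Its within-group SD of 0.080 was at percentile 1.31 of all genes tested, and its probe carried 10 spots per array. Without young replicate 1 the change was 0.22 (adjusted p = 0.0677, 95% interval 0.030 to 0.41). That array held the highest young value, so leaving it out widens the difference by construction. The setting called 3928 of 10643 genes in all.

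Genes of late endosomes and vesicles, the compartment of CD63, gave 0 rises and 0 falls among 13 tested of 15 listed (background 0.498% rising and 0.156% falling). Their median was 0.15 against 0.11 over all genes, with 10 of 13 at higher values. The 3 with the smallest p belong to the machinery that sorts cargo into vesicles within endosomes, namely Tsg101 (0.34 ± 0.12, adjusted p = 0.109), Hgs (0.27 ± 0.10, adjusted p = 0.116) and Vps4b (0.26 ± 0.11, adjusted p = 0.153). Lamp1 and Lamp2, lysosomal membrane proteins like CD63, stood at −0.020 and 0.24 (adjusted p = 0.917 and 0.187). Without young replicate 1, 4 genes of the list passed (Hgs, Tsg101, Vps4b and Pdcd6ip), in a setting that called 3928 of 10643 genes in all. That array was the highest young array for Hgs and Vps4b, so leaving it out widens their differences by construction.

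Tspan8 was not well above background. On aged arrays 3 of 40 spots and on young arrays 6 of 40 were flagged as such. Its scaled values ran from −6.12 to −5.46 on aged and from −5.93 to −5.50 on young arrays, where spots of 1 array differed with an SD of 0.38 to 0.79. These values are not well above background, and no fold is given for it.

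Cd53, a tetraspanin of the leukocyte surface, was the most variable member. Its log2 level was −3.26, −4.86, −3.55 and −2.75 on aged arrays 1 to 4, against −3.89, −1.98, −2.47 and −2.94 on young arrays 1 to 4. Aged replicate 2 was the lowest, with neither spot well above background, and young replicate 1 was lower than 3 of the aged arrays. Cd53 was well above background on 3 of 4 aged and 4 of 4 young arrays and passed the filter through the young arrays alone. Its fitted value rests in part on an aged signal near background. The change was −0.78 ± 0.50 (SE, n = 4 per group, limma adjusted p = 0.298), and the 95% interval of −1.91 to 0.34 spans 0.266 to 1.27 times the young level. The within-group SD of 0.86 was at percentile 97.6 of all genes tested. The value was −0.37 without aged replicate 2, −1.14 without young replicate 1 (adjusted p = 0.0952), and −0.31 or −0.29 with normexp background correction. These 2 arrays were the lowest of their groups, so leaving them out narrows or widens the difference by construction.

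Macrophage and myeloid markers varied beside Cd53. Of 17 such markers 15 were tested and Mrc1 and Itgam did not pass the filter. Their mean was −0.33, −1.24, −0.26 and 0.44 on aged arrays 1 to 4, against −0.41, 0.90, 0.44 and 0.46 on young arrays 1 to 4 (log2, relative to the mean of each gene). The order of the extremes is that of Cd53, lowest in aged replicate 2 and highest in young replicate 2. Their summed level ran from 7.71 to 20.9 times the 75th percentile on aged and from 11.1 to 31.5 times on young arrays. Cd53 centred in the same way minus this mean was −0.043 ± 0.284 on aged and 0.043 ± 0.317 on young arrays (SD, n = 4 each). Both were centred over the same arrays, so these 2 means are equal and opposite by construction. The part of these cells in the values of Cd53 was not tested.

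Cd37, a tetraspanin mainly of B cells, lay close to background. It was well above background on 1 of 4 aged and 3 of 4 young arrays. Its log2 level was −5.51, −5.89, −5.31 and −5.12 on aged arrays 1 to 4, against −5.53, −4.95, −4.90 and −4.74 on young arrays 1 to 4. As for Cd53, aged replicate 2 was the lowest, and young replicate 1 was the lowest young array. Over the 8 arrays the values of the 2 leukocyte genes had a Pearson r of 0.87 and a Spearman rho of 0.81, and r was 0.76 without the 2 arrays farthest from the Cd53 median. Both share the same arrays and scaling. Kept in the test without a filter, Cd37 stood at −0.43 (adjusted p = 0.288). Without young replicate 1 it passed the filter and the test at −0.60 (adjusted p = 0.0378), and it was the only member called in any setting. It entered that test through the 3 young arrays where it was high, with 1 of 4 aged arrays well above background, and leaving out its lowest young array widens the difference by construction, so no change is read from it.

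**Figure D3:**
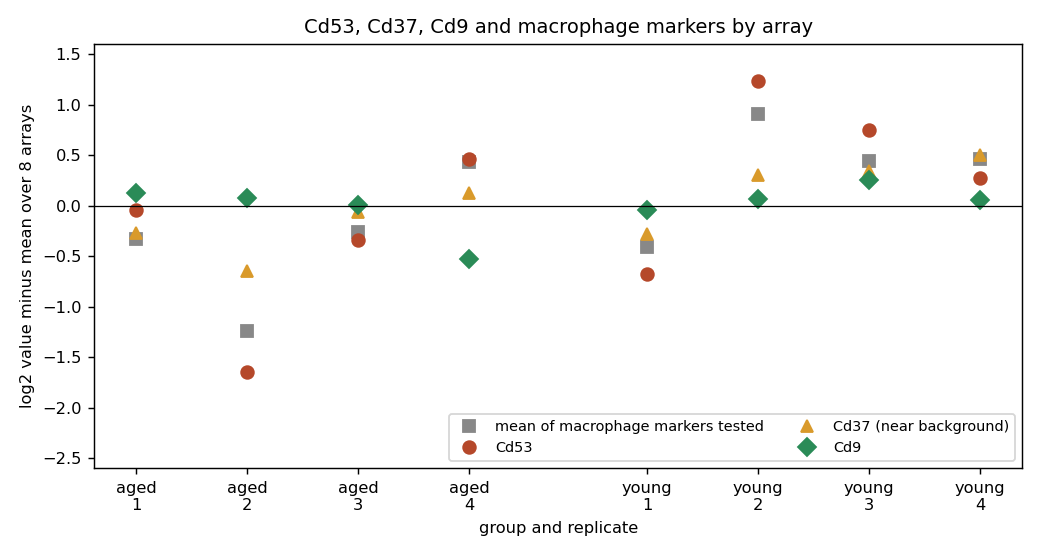
Log2 value of each array minus the mean over the 8 arrays (vertical axis) for Cd53, Cd37, Cd9 and the mean of 15 macrophage markers, with the 4 aged arrays left and the 4 young arrays right. Cd53, Cd37 and the marker mean are all lowest in aged replicate 2, where Cd9 lies close to 0.

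Genes with the most similar profile over the 8 arrays differed between members, as a description without a test. For Cd9 they were Arf1, Fam98a and Tmem129 (r of 0.98, 0.98 and 0.96), and for Cd81 Adam15, Snapc2 and Hcn3 (0.95, 0.94 and 0.93). For Cd63 they were Rpl32, Ppp4r3b and Tom1 (0.99, 0.98 and 0.98), and for Cd151 Fiz1, Nsdhl and Mvb12a (0.98, 0.94 and 0.93). For Cd82 they were Itm2c, Neurl2 and Lipa (0.92, 0.92 and 0.90). For Cd53 they were Fcgrt, Tgfbi and the macrophage complement gene C1qc (0.98, 0.98 and 0.97). Cd9 followed no other member closely (r from −0.27 with Cd63 to 0.51 with Cd82), whereas Cd63 ran against Cd53 (r = −0.84, and −0.67 without the 2 arrays farthest from the Cd63 median).

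Among the 25 remaining family genes, 20 had a named probe and 17 were tested, with 0 rises and 0 falls (background 0.498% rising and 0.156% falling). Their median was 0.086, close to the 0.11 of all genes, and 6 of 17 had lower values, against 36.6% of all genes tested. Among the 6, Tspan11 passed the filter through the young arrays alone. The aged and young values did not overlap in 3 of the 17, against 14.3% of all genes tested. Tspan6 had the smallest p. Tspan6 had log2 levels of 0.34, 0.33, 0.41 and 0.16 on aged arrays 1 to 4, against −0.070, −0.20, −0.18 and −0.15 on young arrays 1 to 4. All aged values lay above all young ones, with a change of 0.46 ± 0.10 (SE, n = 4 per group, limma adjusted p = 0.0561). It passed without young replicate 1 (0.49, adjusted p = 0.00849) and was 0.0071 with scaling to spike-in RNA. Tspan6 also passed with median scaling (adjusted p = 0.0310), normexp (0.0457 and 0.0427), the intensity trend (0.0443) and array weights (0.00287). Those settings called from 259 to 4530 genes in all. Under 20 of the 27 alternatives Tspan6 was not called. Young replicate 1 was its highest young array, so leaving that array out widens the difference by construction. That setting called 3928 of 10643 genes in all. Rom1, a partner of peripherin in the discs of photoreceptors, was likewise separated (0.42 ± 0.13, adjusted p = 0.0848), as was Tspan13 (0.29 ± 0.10, adjusted p = 0.103), which is named after its values were seen.

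Tspan2, known from the oligodendrocyte lineage, showed the widest mean difference of the family. Tspan2 had log2 levels of −1.60, −1.68, −1.75 and −1.66 on aged arrays 1 to 4, against −1.71, −0.31, −0.24 and −0.14 on young arrays 1 to 4. Young replicate 1 lay at the aged level and the other 3 young arrays lay far above it. The change was −1.07 ± 0.31 (SE, n = 4 per group, limma adjusted p = 0.0790), and −1.44 without young replicate 1 (adjusted p = 0.00119). Leaving out the only young array at the aged level widens the difference by construction, so no change is read from that value. That setting called 3928 of 10643 genes in all. Peritubular and spermatid marker means were low on the same young array, as given above, and their part in the value of Tspan2 was not tested.

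Of the tetraspanins that guide the protease ADAM10, 5 that were tested are named after their values were seen, and none of these passed the main test. Tspan5 stood at −0.31 ± 0.16, Tspan14 at 0.086 ± 0.278, Tspan15 at 0.21 ± 0.25, Tspan17 at 0.083 ± 0.435 and Tspan33 at 0.11 ± 0.12, with adjusted p from 0.208 to 0.910. The uroplakins of the bladder lining, also tetraspanins, had opposite signs, with Upk1a at 0.36 ± 0.16 and Upk1b at −0.32 ± 0.15 (adjusted p = 0.165 and 0.188).

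**Figure D4:**
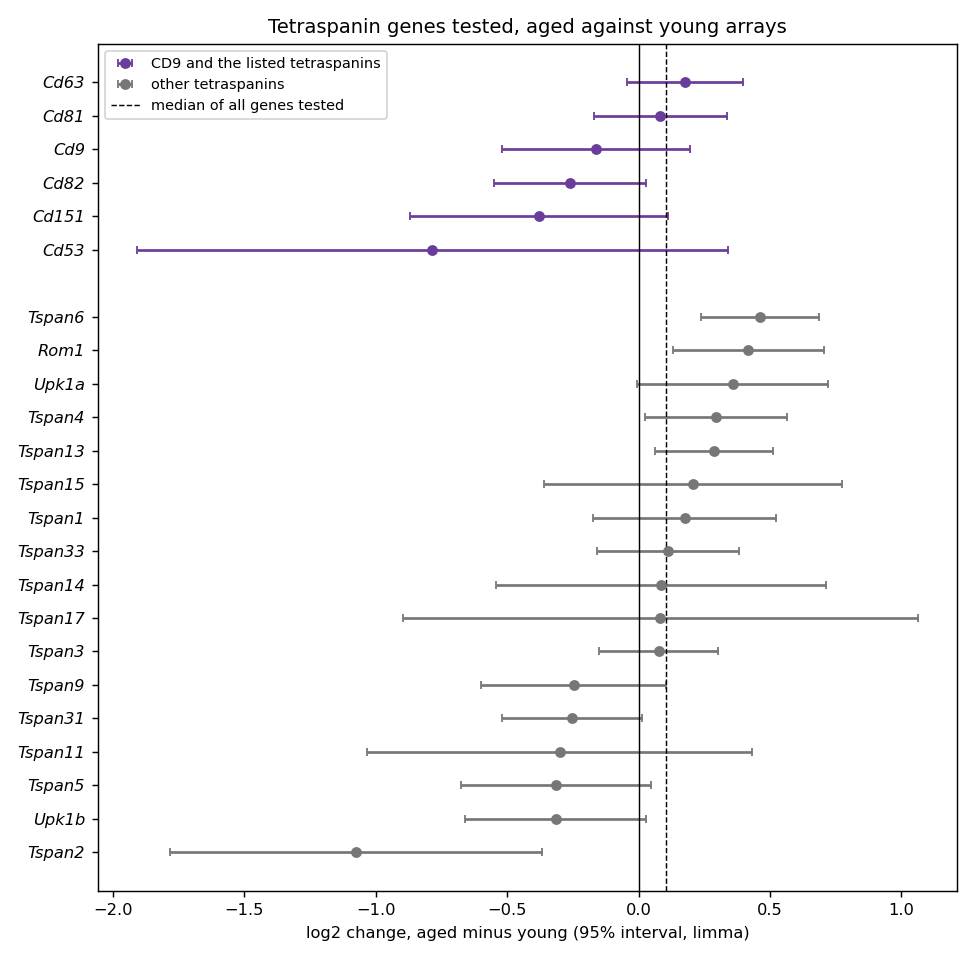
Log2 change, aged minus young, with the 95% interval of the limma fit (horizontal axis) for the 6 members tested (purple) and the 17 other tetraspanins tested (grey). Points right of the solid line are higher in aged cells, and the dashed line marks the median of all genes, 0.11. The interval of Cd53 is the widest, and those of Tspan6, Tspan2, Rom1, Tspan13 and Tspan4 do not include 0 although none of these genes passed the adjusted test.

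Of 22 proteins known to associate with tetraspanins, 17 were tested, with 0 rises and 0 falls (background 0.498% rising and 0.156% falling). Lower values were found in 12 of the 17, against 36.6% of all genes tested, with a median of −0.15 against 0.11. Among the 12, Egfr, Cd46 and Cd36 passed the filter through the young arrays alone, and Egfr is also among the genes without overlap. These counts therefore rest in part on genes admitted where they were high. The aged and young values did not overlap in 3 of the 17, against 14.3% of all genes tested. Ptgfrn, the immunoglobulin-domain protein bound most directly by CD9 and CD81, was sharply separated. Its log2 level was −0.54, −0.58, −0.55 and −0.57 on aged arrays 1 to 4, against −0.21, −0.17, −0.26 and −0.19 on young arrays 1 to 4. The groups lay apart by more than their own ranges, with a change of −0.35 ± 0.09 (SE, n = 4 per group, limma adjusted p = 0.0621). It ran from −0.37 to −0.34 with any 1 array left out. It passed without young replicate 1 (adjusted p = 0.0129), in a setting that called 3928 of 10643 genes in all. It was −0.20 with median scaling (adjusted p = 0.196) and −0.81 with scaling to spike-in RNA (adjusted p = 0.0429). Ptgfrn also passed with normexp (adjusted p = 0.0420 and 0.0422) and array weights (0.00582). Under 21 of the 27 alternatives Ptgfrn was not called. Igsf8, its relative and the other direct partner of CD9, stood at −0.070 ± 0.167 (adjusted p = 0.795).

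Epcam, an epithelial adhesion molecule that binds tetraspanin patches and marks spermatogonia in the rat, had log2 levels of 1.66, 1.75, 1.49 and 1.63 on aged arrays 1 to 4, against 1.33, 1.09, 1.17 and 1.11 on young arrays 1 to 4. The groups did not overlap, and the change was 0.46 ± 0.11 (SE, n = 4 per group, limma adjusted p = 0.0561). On the spike-in scale Epcam stood at 0.0027 (adjusted p = 0.991). It passed with median scaling (adjusted p = 0.0338), normexp (0.0356 and 0.0358), the intensity trend (0.0445) and array weights (0.00416). Those settings called from 259 to 4530 genes in all. Under 20 of the 27 alternatives Epcam was not called. Egfr, the epidermal growth factor receptor, was well above background on 1 of 4 aged and 4 of 4 young arrays and passed the filter through the young arrays alone. Its fitted value of −1.68 ± 0.31 (adjusted p = 0.0504) therefore rests on aged signals near background, and it was −0.16 or −0.21 with normexp background correction. The integrin chains Itgb1 and Itgb4, partners of CD9 and CD151, stood at −0.15 ± 0.12 and 0.051 ± 0.134 (adjusted p = 0.420 and 0.815), and Sdcbp, which binds CD63, at −0.0011 ± 0.094.

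**Figure D5:**
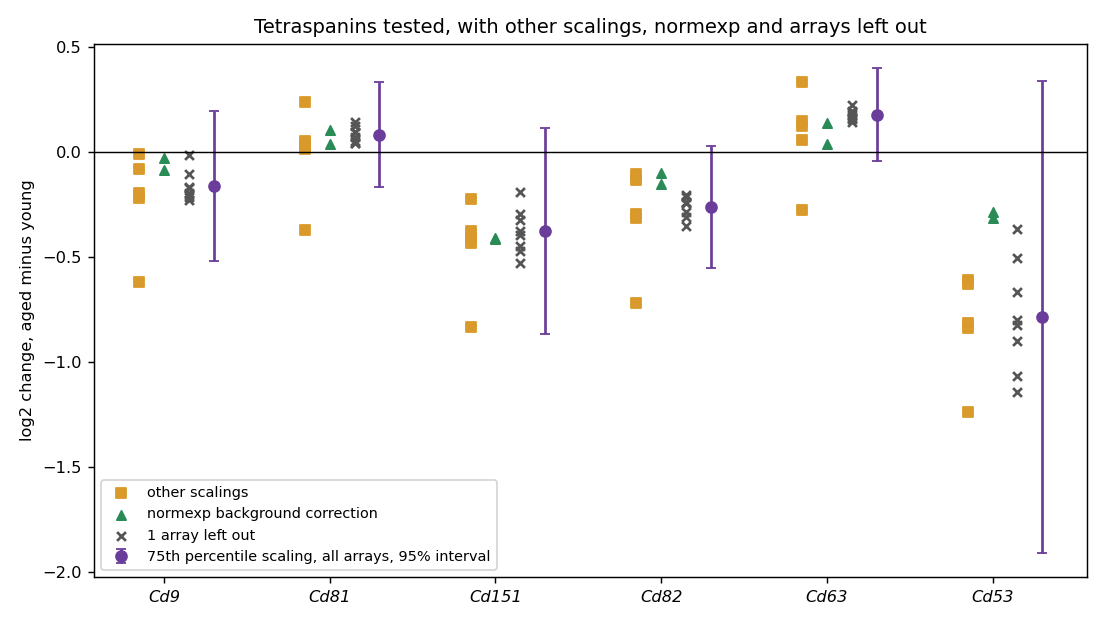
Log2 change, aged minus young (vertical axis), of the 6 members tested with 75th percentile scaling on all arrays and its 95% interval (purple), with 5 other scalings (squares), with normexp background correction (triangles) and with each array left out in turn (crosses). The lowest square of each gene is scaling to spike-in RNA, under which Cd81 and Cd63 lie below 0.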

How the data were processed

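The 8 genes, the other lists and the tests were chosen with earlier results of these data known. Per the file headers, the deposited processed signal is an intensity from Agilent Feature Extraction 10.7.3.1 (12.5 per the submitters' processing notes), corrected for background by the software and not scaled between arrays. Normexp used the deposited median intensity of each spot and of its surroundings. Other deposited columns are flags of 0 or 1 for signal over background, saturation and outliers, per the file headers. Scaling between arrays was not given in the sources used here.

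Control and outlier spots were left out, log2 was taken, spots of a probe were averaged, and the 75th percentile over the 30367 probes of each array was subtracted. Accessions were matched to RefSeq symbols of assembly GRCr8 (17998 probes, 15154 genes). The brightest probe that passed the filter stood for a gene. Aged and young arrays were compared with limma 3.58.1 (lmFit, eBayes, two-sided) in R 4.3.3, tested on simulated data, with Benjamini-Hochberg adjustment over 10234 genes. The number of arrays limits the precision.

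Named genes were the 8 members, per list the called genes or else the 3 with the smallest p, and per tested member the 3 genes most correlated over the arrays. Any further gene given with a value was picked after its values were seen. Markers of spermatids, stromal cells, macrophages and germ cells came from fixed lists. Alternatives covered scaling, background, filters, probes, variance model, replicate block and left-out arrays.

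The authors' deposited log2 table was centred on each probe's median. It differed between arrays as the scaled scanner values did (slopes of 1.00 and r of 1.00 over 4308 bright probes), which settles its scale and direction. The scaling before centring was not stated. In that table the changes of Cd9 and Cd81 were −0.163 and 0.0833, against −0.164 and 0.0828 with the main scaling used here. Cd9 was −0.195 without scaling, −0.008 with median scaling and −0.080 with quantile scaling. For Cd9 and Cd81 the table was thus closest to the main scaling. Its column medians were −0.019, 0.051, 0.065 and −0.0026 for aged and 0.092, −0.073, −0.14 and −0.057 for young replicates 1 to 4.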

Additional observations from a re-analysis of the deposited data

Results flagged for a closer look

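Within groups of 4 arrays, the gap of the most distant array to its neighbour, divided by the range of the group, was compared with Dixon's 95% critical value for 4 samples for the 15 named genes of the lists in both groups. Of 30 groups 2 lay above it, where chance gives about 1 in 20. Tspan2 in young cells had a ratio of 0.892, with young replicate 1 far below the other young arrays. Vps4b in young cells had a ratio of 0.833, with young replicate 1 above the others (−0.99, against −1.23 to −1.19). Cd9 in aged cells reached 0.828, just under the critical value, with aged replicate 4 as the distant array.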

How the results depend on the processing

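Cd9, Cd151, Cd82 and Cd53 had lower values in aged cells under all alternatives run for them (27, and 26 for Cd53). Cd53 failed the filter of all arrays. Part of these alternatives could not move the change of a gene with 1 probe. Other filters, the mean of probes, every probe tested, the intensity trend, the replicate block and the looser cut left Cd9 at −0.164. The shared sign therefore follows partly by construction, and the main intervals of Cd9, Cd151, Cd82 and Cd53 included 0. Cd81 and Cd63 were higher except when spike-in RNA set the scale, a setting added later with the data known, where they were −0.37 and −0.28. That scaling also turned Rom1 to −0.038, Tsg101 to −0.12, Hgs to −0.19 and Vps4b to −0.20, and called 1069 genes, 6 higher and 1063 lower, 4 of them other tetraspanins and 3 partners. Median scaling called 1335 genes (median gene 0.26), with 2 other tetraspanins, 2 partners and 1 endosome gene. Normexp called 632 genes (365 higher, 267 lower) with 2 other tetraspanins, 2 partners and 2 separated member pairs, or 259 with quantile scaling, with 1, 2 and 1. An intensity trend called 427 genes (1 other tetraspanin, 2 partners), array weights 4530 (7, 7 and 6 endosome genes), and an adjusted p under 0.1 called 1678 (3 and 4). The median over spots and the percentile over spots, also added later, each called 1 partner, Egfr. In limma 0 genes were called without scaling (1388 at an unadjusted p under 0.05), without a filter (3339), with every probe tested (5332) and with the replicate block (3231). Same-numbered arrays correlated in their deviations at −0.26, −0.11, 0.44 and 0.35. Only aged replicate 3 had the same-numbered young array as its best match, and so few correlations cannot decide whether samples were paired. Leaving out each array in turn gave 0 to 3928 genes, 0 to 1 members, 0 to 5 other tetraspanins, 0 to 7 partners, 0 to 4 endosome genes and 0 to 3 separated pairs. The highest counts came without young replicate 1 (3 pairs also without aged replicate 1), and any other array left out gave at most 1 gene. The cause of these shifts was not tested. Slide and scan could not be fitted, since all arrays shared 1 of each. Cd37 and Tspan8 are limited by signal over background.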
